A study of Macaca mulatta with 136 samples.

Results

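Ribosomal protein genes encode the protein parts of the cytoplasmic ribosome, and in the deposited tables they were taken as every entry whose gene symbol is RPS or RPL followed by a number, with an optional A, X, Y or L. This naming rule selected 279 of 19422 gene identifiers, with 81 symbols, of which 33 belong to the small subunit (120 entries) and 48 to the large subunit (159 entries). Expression had been measured by poly-A RNA-seq in neural retina and in RPE/choroid (retinal pigment epithelium with the choroid, its blood-vessel layer) from 4 sites of postmortem eyes of adult rhesus macaques, namely fovea/macula, perimacula, nasal and periphery. Each of the 8 groups held 4 eyes, the right and left eyes of the animals RM03 and RM04, which makes 32 libraries. The animals carried no label of genetic change or treatment, the punches were 2 mm wide, and the p-values measure the spread over 4 eyes of 2 animals. Fovea, perimacula and nasal libraries shared 2 flow cells, whereas all periphery libraries lay on 1 other. Effects of that flow cell and of the peripheral location cannot be told apart.

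The ribosome is built from a small subunit, which decodes the mRNA, and a large subunit, which joins amino acids, and most of its proteins are made in equal numbers. The mRNAs of these proteins begin with a pyrimidine tract (the TOP motif), through which the TOR kinase pathway sets their translation, and they are among the most abundant mRNAs of many cells. A few members have a paralogue with a tissue-biased pattern, among them RPL3L in striated muscle and RPL10L and RPL39L in testis. Mammalian genomes also hold many intronless copies of ribosomal protein genes, so that reads can be divided among near-identical entries.

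The copies were visible in the tables. Of the 81 symbols, 12 had a single entry and 69 had several, led by RPS2 with 14 entries, RPL7A with 12 and RPS3A with 8. The entry with the highest mean level of each symbol was taken as its principal entry. Levels are given as CPM, in which the counts of each library are scaled to a common total. That holds in this paragraph and for entries with a LOC identifier. Other levels are TMM-normalised CPM, in which the library size is also adjusted by a TMM factor. Of the 279 entries, 61 had a mean above 100 CPM, 23 lay between 10 and 100, 8 between 1 and 10, and 187 at 1 CPM or below, 7 of them at 0 in every library. All 61 entries above 100 CPM were principal entries, and 179 of the 198 other entries lay at 1 CPM or below. For RPS3A, however, the principal entry held only 44.2% of the reads of its symbol, so that its values are uncertain.

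The reads per gene depend on transcript length, which was not corrected between genes. With that limit, RPL3 took the most reads over the 32 libraries (923.6 CPM), and RPL4 was also among the highest (620.3 CPM). At the other end stood 8 symbols whose principal entry was at 1 CPM or below. They were RPL34, RPL3L, RPL21, RPL17, RPS6, RPS26, RPL10L and RPL39L, from 0.00374 CPM for RPL34 to 0.479 CPM for RPL39L. RPS6, RPL34, RPL21, RPL17 and RPS26 are core components of every ribosome. A further 98 entries carried a LOC identifier together with a human symbol that would fit the rule, among them entries for RPS6 and RPL21, and 10 of these exceeded 10 CPM. They stood outside the rule, with up to 479 CPM for RPS6 and 187.5 CPM for RPL21. The low values of the named RPS6 and RPL21 entries are therefore no measure of those genes. None of the LOC entries above 10 CPM was for RPL34, RPL17 or RPS26. The low values of these were not explained and are not taken as a measure of the genes. RPL15 was a special case, described with the animals below. The principal RPS15A entry (ENSMMUG00000005593) bears the symbol ARL6IP1 in a newer RefSeq annotation and is named with that doubt.

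Summed over the 279 entries, ribosomal protein reads took a smaller share of the library in retina than in RPE/choroid at every location. At the retinal fovea the share was 0.826, 0.872, 0.740 and 0.748% of the estimated counts in the RM03 right, RM03 left, RM04 right and RM04 left eyes, a mean of 0.797% ± 0.0638 (SD, n = 4 eyes). In the same eyes and order, foveal RPE/choroid gave 1.84, 1.86, 1.91 and 1.93%, a mean of 1.89% ± 0.0415. The ranges were far apart, with the mean in RPE/choroid 2.37 times that in retina. The retinal share was 0.963% ± 0.0831 at the perimacula and 1.05% ± 0.0308 at the nasal location, and the retinal fovea had the lowest share of the 3 in each of the 4 eyes. Foveal and nasal retina did not overlap (0.740 to 0.872 against 1.02 to 1.09%), whereas foveal and perimacular retina did, through the RM04 left eye, which had 0.847% at the perimacula.

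In RPE/choroid the order was different. The share was highest at the perimacula (2.03% ± 0.0421), followed by the fovea (1.89% ± 0.0415) and the nasal location (1.72% ± 0.0208), in 4 of 4 eyes and without overlap between the groups. That order did not hold when the shares were taken over TMM-normalised library sizes. The fovea (1.89 to 2.10%) then overlapped both the perimacula (1.98 to 2.14%) and the nasal location (1.79 to 1.95%), and the difference of fovea minus perimacula went from -0.143 to -0.0450 percentage points. Perimacula and nasal still did not overlap, with the difference at 0.175 in place of 0.309 percentage points. At the periphery the share reached 2.35% ± 0.168 in retina and 3.22% ± 0.119 in RPE/choroid. No test was made of these sums, which describe the libraries.

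**Figure D1:**
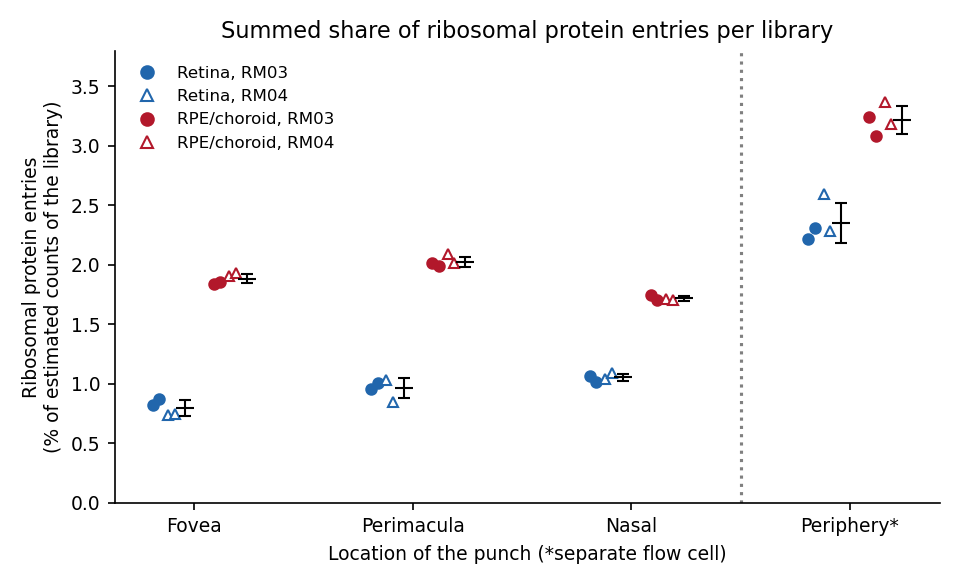
Percent of each library's estimated counts in the 279 ribosomal protein entries (y axis) by location of the punch (x axis), 1 point per eye, in retina (blue) and RPE/choroid (red), circles for RM03 and triangles for RM04. Retina lies below RPE/choroid at each location, foveal retina is lowest at 0.740 to 0.872%, and the periphery to the right of the dotted line was on another flow cell.

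Bulk tissue does not separate fewer cells of a type from less RNA per cell, and cell type markers moved with these groups. The summed level of 9 rod markers was 4013 to 4610 CPM in foveal retina, 10645 to 16552 at the perimacula, 15101 to 17438 in nasal and 23891 to 28040.3 in peripheral retina. That of 6 retinal neuron markers ran the other way, at 9407 to 10731, 3814 to 6719.5, 3103 to 3447 and 1784 to 2216 CPM. Within the perimacular retina, the RM04 left eye, lowest in ribosomal protein share, had the least rod signal (10645 CPM) and the most neuron signal (6719.5 CPM). In RPE/choroid, pigment epithelium markers (7 of the 8 listed, RDH5 not analysed here) summed to 7178 to 13740.1 CPM at the fovea, 5309 to 10907 at the perimacula, 8834 to 13447 at the nasal location and 3930.1 to 11312 at the periphery, against 92.4 to 481 CPM in retina. The perimacula, where the ribosomal protein share was highest on shared flow cells, was below the nasal location in this sum in 4 of 4 eyes. The single pigment epithelium markers went both ways. Of the 7, 3 were called higher at the perimacula than at the nasal location and 2 lower, with a median log2 fold change of 0.21. Markers of endothelium and stroma summed to medians of 3924, 4225, 4711 and 8883 CPM at these locations of the RPE/choroid, against 31.1 to 82.7 CPM in retina. Leukocyte markers summed to medians of 2217, 2235, 2256 and 3740.03 CPM, against 62.5 to 276 CPM in retina. Both sums were highest at the periphery. Singly, 3 of 7 endothelium and stroma markers were called higher at the fovea than at the periphery of RPE/choroid and 3 lower (median log2 fold change 0.11). Of 5 leukocyte markers, 4 were called lower at the fovea and none higher. Rod markers summed to 50.1 to 539 CPM in RPE/choroid on shared flow cells and 126 to 924 CPM at its periphery, and no marker was at 0 throughout a group. The retinal neuron markers summed to 168 to 416 CPM in RPE/choroid. Of these 6, 5 were called higher and 1 lower in retina than in RPE/choroid at the nasal location, and 4 higher and 1 lower at the periphery. By these sums the labelled tissues carried their markers. The part of cell composition in the ribosomal protein values was not tested.

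Individual genes were compared with edgeR's quasi-likelihood test over all genes, with the monkey as covariate and Benjamini-Hochberg adjustment, and called at an adjusted p under 0.05. A filter on low counts kept 104 of the 279 entries in the fit of the retina and 107 in that of the RPE/choroid at the locations on shared flow cells, and the counts below describe those entries.

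In retina, 73 of 104 tested entries were lower at the fovea than at the nasal location and 49 were lower than at the perimacula, and no entry was called higher at the fovea in either comparison. Between fovea and nasal retina 56.0% of all genes were called, 31.3% lower and 24.7% higher. Among principal entries 59 of 74 were lower, 26 of 31 of the small subunit and 33 of 43 of the large subunit. The median log2 fold change of the 104 entries was -0.37, beside -0.07 over all genes. Between fovea and perimacula 45.0% of all genes were called (24.8% lower, 20.2% higher), and the median was -0.25 beside -0.04. Against the perimacula the share of entries called, 47.1%, was thus near that of all genes, while each called entry was lower at the fovea.

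RPL41, one of the smallest proteins of the large subunit (ENSMMUG00000031840), showed the largest fold change by the naming rule, which takes called principal entries at a mean of 5 log2 CPM or more. It had 184, 179, 126 and 133 CPM in foveal retina, 275, 270, 235 and 175 CPM in perimacular retina and 320, 268, 250 and 251 CPM in nasal retina. Foveal and nasal levels did not overlap, whereas the lowest perimacular eye fell within the foveal range. The log2 fold change was -0.82 against nasal (SE 0.09, adjusted p = 1.80e-05) and -0.62 against the perimacula (SE 0.09, adjusted p = 0.000272).

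RPS27, a small-subunit protein with a zinc finger (ENSMMUG00000018240), had 79.4, 71.8, 61.5 and 62.7 CPM in foveal retina. Its levels were 105, 106, 115 and 95.3 CPM in perimacular and 120, 113, 118 and 127 CPM in nasal retina, so that every foveal eye lay below every other eye. The log2 fold change was -0.80 against nasal (SE 0.08, adjusted p = 9.81e-06) and -0.62 against the perimacula (SE 0.08, adjusted p = 0.000133).

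RPS18, which sits in the head of the small subunit (ENSMMUG00000003867), had 114, 117, 106 and 104 CPM at the fovea and 193, 173, 195 and 196 CPM at the nasal location of the retina. The groups were separate, and the log2 fold change was -0.78 (SE 0.10, adjusted p = 3.87e-05). Its perimacular levels of 166, 174, 185 and 128 CPM were above every foveal eye and overlapped the nasal range, with a log2 fold change of -0.56 from the fovea (SE 0.10, adjusted p = 0.000722).

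Not every member followed. RPL10, a late-joining protein of the large subunit (ENSMMUG00000005494), had 53.0, 53.7, 46.7 and 53.5 CPM in foveal and 50.9, 47.7, 52.5 and 54.5 CPM in nasal retina, overlapping groups with a log2 difference of 0.01 (adjusted p = 0.908). Of the 15 principal entries not called between fovea and nasal retina, RPL29, RPL36, RPL7L1, RPS10 and RPS24 had log2 differences from -0.52 to -0.23 with adjusted p of 0.0542 to 0.0707, and were singled out after their values were seen. Of the 73 principal entries above 1 CPM, 72 had their lowest mean at the fovea among the 3 locations and 68 their highest at the nasal location. Neither of these counts has a share over all genes beside it, so both only describe entries that share libraries. All 4 foveal eyes lay below all 4 nasal eyes for 41 of 74 principal entries, where 23.9% of all genes showed this, and below all perimacular eyes for 18, where 15.9% did.

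Perimacular and nasal retina were close. None of the 104 entries passed the edgeR test, in a comparison in which 3.34% of all genes were called, 8 had an unadjusted p under 0.05, and DESeq2 called 1. The log2 difference was below 0 for 70 of 74 principal entries, a count with no share over all genes beside it. All perimacular eyes lay below all nasal eyes for 3 of the 74, where 3.74% of all genes did. The foveal and perimacular comparison rested in part on the RM04 right eye, since 21 entries were called without that eye in place of 49, and 30 without the animal covariate.

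**Figure D2:**
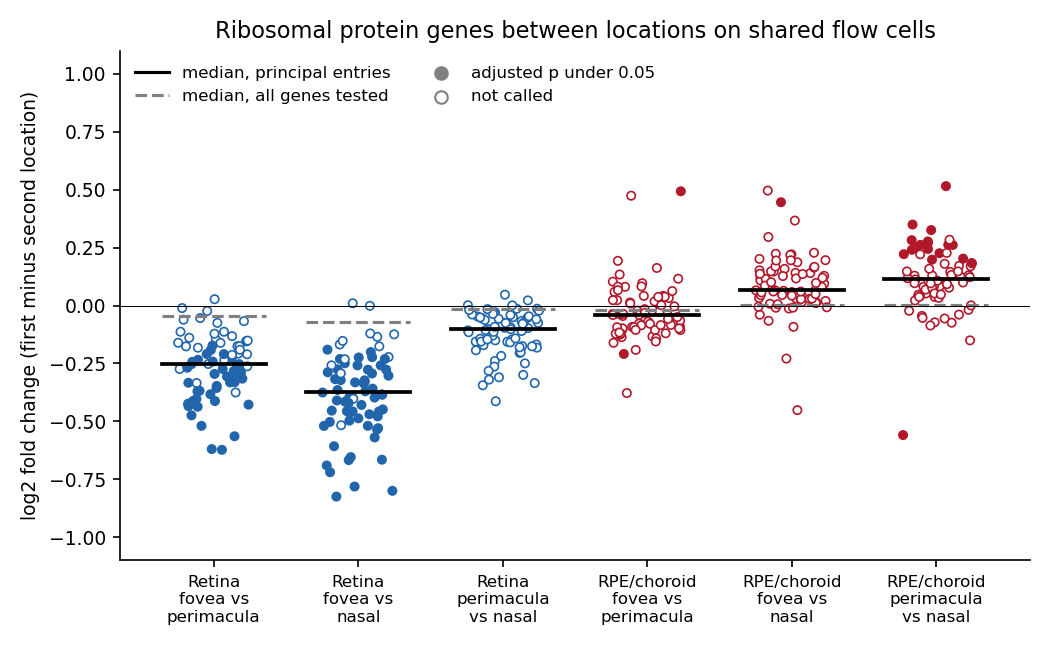
Log2 fold change (first minus second location, y axis) of each tested principal ribosomal protein entry above 1 CPM for the 6 comparisons among locations on shared flow cells (x axis), in retina (blue) and RPE/choroid (red); filled points passed an adjusted p of 0.05, solid lines are the medians of the principal entries and dashed lines those of all genes tested. In retina the points lie almost wholly below 0 for the fovea, and in RPE/choroid most lie within 0.25 of 0, with called entries above 0 between perimacula and nasal.

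In RPE/choroid the differences among locations were small, and the perimacula against the nasal location gave nearly all calls. There 22 of 107 tested entries were higher at the perimacula and 1 was lower, where 12.3% of all genes were called (6.42% higher, 5.87% lower). Their median log2 fold change was 0.13 beside 0.00 over all genes, and 17 of 76 principal entries were above every nasal eye in all 4 eyes, where 6.46% of all genes were. Between fovea and perimacula 1 entry was higher and 2 were lower (3.51% of all genes called, 2.42% higher and 1.09% lower), and between fovea and nasal 2 were higher (3.88% called, 2.13% higher). The foveal counts depended on the fit. The 3 against the perimacula were 0 with the eye as a block and 0 with any 1 eye left out, but 6 with DESeq2. The 2 against nasal were 0 without any 1 of the RM03 left, RM04 right or RM04 left eyes, 4 without the RM03 right eye and 13 with DESeq2.

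RPL13, a large-subunit protein (ENSMMUG00000017928), had the largest rise by the naming rule. It had 251, 234, 279 and 281 CPM in perimacular, 232, 247, 246 and 269 CPM in foveal and 190, 179, 185 and 175 CPM in nasal RPE/choroid. Every nasal eye lay below every eye of the other locations. The log2 fold change against nasal was 0.52 for the perimacula (SE 0.06, adjusted p = 0.00160) and 0.45 for the fovea (SE 0.06, adjusted p = 0.00849). The foveal call was lost without any 1 of the RM03 left, RM04 right or RM04 left eyes, and without the animal covariate.

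RPS14, a small-subunit protein of the platform (ENSMMUG00000002848), had 345, 299.9, 331 and 326 CPM in perimacular against 263, 241, 268 and 250 CPM in nasal RPE/choroid, without overlap. Its log2 fold change was 0.35 (SE 0.06, adjusted p = 0.00668). RPL19, a large-subunit protein that bridges to the small subunit (ENSMMUG00000004235), had 387, 382, 430 and 420 CPM against 304, 305, 341 and 344 CPM, again without overlap, with a log2 fold change of 0.33 (SE 0.04, adjusted p = 0.00261). RPL19 was also lower at the fovea (336, 330, 355 and 380 CPM) than at the perimacula, by a log2 fold change of -0.21 (SE 0.04, adjusted p = 0.0310). That call was lost with the eye as a block (adjusted p = 0.0673) and with any 1 eye left out, and its adjusted p ranged from 1.4e-06 to 0.310 over the alternatives.

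The principal RPS15A entry went the other way and tracked the animal. It had 119, 135, 194 and 225 CPM in perimacular, 214, 190, 292 and 276 CPM in nasal and 168, 148, 353 and 306 CPM in foveal RPE/choroid. Both RM04 eyes were above both RM03 eyes at each of the 3 locations. Its log2 fold change was -0.56 for perimacula against nasal (SE 0.11, adjusted p = 0.0125) and 0.49 for fovea against perimacula (SE 0.11, adjusted p = 0.0405). The latter call was lost with the eye as a block (adjusted p = 0.0820) and with any 1 eye left out, and its adjusted p ranged from 0.0013 to 0.558 over the alternatives. The 23 entries called between perimacula and nasal became 2 to 10 with 1 eye left out (5 without the RM03 right, 10 without the RM03 left, 2 without the RM04 right and 5 without the RM04 left eye), 5 without the animal covariate, and 53 when library totals alone set the scale, which moved the median of all genes to 0.11.

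Whether the change from nasal to fovea differed between the tissues was tested as an interaction. It was more negative in retina for 62 of 111 tested entries and more positive for none, where 29.3% of all genes differed (15.8% more negative and 13.5% more positive in retina). Among principal entries 56 of 76 passed, 25 of 32 of the small and 31 of 44 of the large subunit. The median difference of log2 fold changes was -0.49 beside -0.05 over all genes. The count was 26 without the RM04 right eye and 34 without the RM04 left eye.

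RPS19, a small-subunit protein whose gene is mutated in Diamond-Blackfan anaemia (ENSMMUG00000013429), had 42.2, 46.7, 35.9 and 35.9 CPM in foveal and 66.1, 61.7, 62.9 and 63.2 CPM in nasal retina. In RPE/choroid it had 133, 145, 140 and 151 CPM at the fovea and 132, 126, 116 and 115 CPM at the nasal location. The foveal eyes were thus all lower in retina and all higher in RPE/choroid, and the interaction was -0.89 on the log2 scale (SE 0.15, adjusted p = 0.000146). The rise in RPE/choroid was not called by edgeR (log2 fold change 0.22, adjusted p = 0.0610), and 133 and 132 CPM nearly met. A second RPS19 entry (ENSMMUG00000047655) had 0.01 there (adjusted p = 0.938), with an interaction of -0.76 (adjusted p = 0.00888). An opposite change of RPS19 in the tissues is therefore not shown.

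RPS27 (-0.88, adjusted p = 2.20e-05) and RPS18 (-0.84, adjusted p = 3.52e-05) had interactions of like size. In RPE/choroid the levels of RPS27 overlapped, with 355, 430, 437 and 381 CPM at the fovea and 401, 354, 364 and 395 CPM at the nasal location. Those of RPS18 overlapped too, at 392, 387, 427 and 410 CPM against 385, 372, 388 and 405 CPM.

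The tissues differed broadly. At the fovea 91 of 111 tested entries were lower in retina than in RPE/choroid and 5 were higher, where 78.6% of all genes were called (39.7% lower, 38.9% higher). Of the principal entries 71 of 76 were lower, and the median log2 fold change of the principal entries was -1.48, beside 0.00 for all genes. At the perimacula 91 entries were lower and 6 higher (79.7% of all genes called, 40.4% lower and 39.3% higher), and at the nasal location 84 were lower and 7 higher (78.9% called, 39.7% lower and 39.3% higher). The median over principal entries was -1.28 and -1.01 at these locations. The step shrank from fovea through perimacula to nasal for 64 of 76 principal entries, and 68 of 76 were called lower in retina at all 3 locations. These comparisons share no libraries but come from the same eyes. Neither count has a share over all genes beside it, so both only describe the entries. All 4 retinal eyes lay below all 4 RPE/choroid eyes for 70 of 76 principal entries at the fovea, where 34.9% of all genes did.

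RPS27 had the largest fold difference by the naming rule at the fovea, where the levels given above put retina at 61.5 to 79.4 CPM and RPE/choroid at 355 to 437 CPM. This was a 5.82-fold lower level in retina (log2 fold change -2.54, SE 0.09, adjusted p = 5.69e-16), and the fold was 3.17 at the nasal location. RPL39, a short protein at the exit of the peptide tunnel (ENSMMUG00000018391), had 30.8, 28.4, 24.3 and 23.4 CPM in foveal retina and 112, 121, 144 and 121 CPM in foveal RPE/choroid. The ranges did not meet, and the log2 fold change was -2.22 (SE 0.11, adjusted p = 2.06e-13), -1.98 at the perimacula and -1.73 at the nasal location.

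RPL28, a large-subunit protein particular to eukaryotes (ENSMMUG00000015901), had 67.5, 70.1, 35.8 and 35.3 CPM in foveal retina and 245, 343, 165 and 168 CPM in foveal RPE/choroid. The tissues did not overlap, and RM03 was above RM04 in both tissues. The log2 fold change was -2.16 (SE 0.10, adjusted p = 2.24e-14). RPL37, a zinc-finger protein of the large subunit (ENSMMUG00000023807), had 90.6, 87.4, 102 and 103 CPM in nasal retina and 314, 283, 349 and 365 CPM in nasal RPE/choroid, a log2 fold change of -1.77 (SE 0.10, adjusted p = 1.27e-12). It was the most negative at that location by the naming rule, as RPL13 was at the perimacula with -2.06, and some entries below the rule's limit on level were more negative, among them RPS27L.

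Although the levels differed, the order of the genes was similar in the tissues. Over 73 principal entries above 1 CPM, mean log2 CPM in retina and RPE/choroid had a Pearson r of 0.93 at the fovea and 0.94 at the nasal location. This is a description across genes, which share libraries and are not replicates. Of the 6 groups on shared flow cells, 70 of the 73 entries had their lowest mean in foveal retina, and 45 had their highest in perimacular and 24 in foveal RPE/choroid. These counts also only describe the entries, with no share over all genes beside them.

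**Figure D3:**
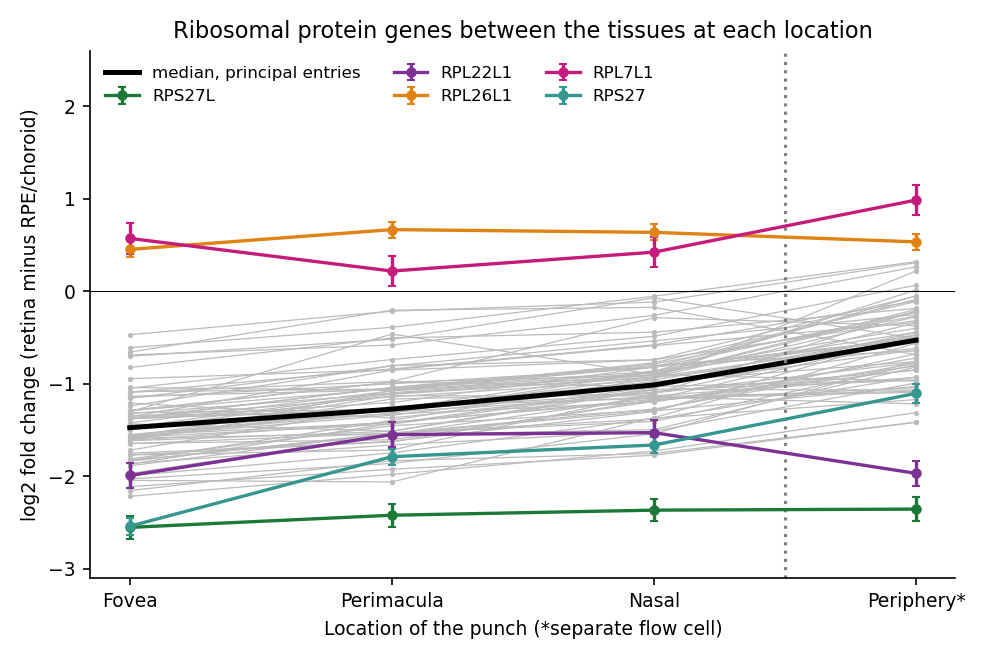
Log2 fold change of retina minus RPE/choroid (y axis) at each location (x axis) for the principal ribosomal protein entries above 1 CPM (grey lines), with their median over tested principal entries in black and 5 genes in colour with standard errors. The median runs from -1.48 at the fovea to -1.01 nasally and -0.53 at the periphery, which was on another flow cell, while RPL26L1 and RPL7L1 stay above 0 and RPS27L stays near -2.4.

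Some paralogues departed from this pattern and were higher in retina, while others were lower there. RPL26L1, a close relative of RPL26 (ENSMMUG00000041071), was higher in retina. It had 21, 19.8, 20.1 and 20.3 CPM in foveal retina and 13.8, 13.3, 18.1 and 14.3 CPM in foveal RPE/choroid, whereas RPL26 itself had 92.0 to 108 CPM in retina and 326 to 396 CPM in RPE/choroid. The ranges did not overlap for either gene, and they lay in opposite order. The log2 fold change of RPL26L1 was 0.45 at the fovea (SE 0.09, adjusted p = 8.26e-05), 0.67 at the perimacula, 0.64 nasally and 0.53 at the periphery, all called, beside -1.84 for RPL26 at the fovea.

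RPL7L1, a relative of RPL7 with a role in ribosome assembly (ENSMMUG00000016097), had 9.58, 9.90, 11.3 and 9.96 CPM in foveal retina and 6.71, 4.59, 9.19 and 7.08 CPM in foveal RPE/choroid. The retina was higher in each eye (log2 fold change 0.57, SE 0.17, adjusted p = 0.00376). It was called at the nasal location (0.42, adjusted p = 0.0244) and the periphery (0.99), while at the perimacula the difference was 0.22 (adjusted p = 0.228). RPL7 fell by 1.65 on the log2 scale in foveal retina.

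RPS27L, a p53-responsive relative of RPS27 (ENSMMUG00000016350), was lower in retina. It had 7.36, 6.14, 5.01 and 5.40 CPM in foveal retina and 35.8, 35.9, 39.0 and 29.3 CPM in foveal RPE/choroid, far apart, and its log2 fold change was -2.55 (SE 0.12, adjusted p = 8.80e-14). At the other locations, in the same order, the values were -2.42, -2.37 and -2.36. Between foveal and nasal retina it had a difference of -0.18 (adjusted p = 0.293), in contrast to the -0.80 of RPS27; the difference between the genes was not tested.

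RPL22L1, a relative of the RNA-binding RPL22 (ENSMMUG00000022881), had 1.54, 1.29, 1.56 and 1.61 CPM in foveal retina and 4.20, 6.20, 7.49 and 6.15 CPM in foveal RPE/choroid. Retina was lower in every eye, with log2 fold changes of -1.99, -1.55, -1.53 and -1.97 at the fovea, perimacula, nasal site and periphery. RPL39L and RPL10L were near the limit of detection. RPL39L had 0.0410 to 0.139 CPM in foveal retina and 0.223 to 0.837 CPM in foveal RPE/choroid, and was called lower in retina at each location. RPL10L was called only at the perimacula (-0.90, adjusted p = 0.0468). That call was lost with the eye as a block (adjusted p = 0.0525), and its adjusted p ranged from 0.0153 to 0.208 over the alternatives. RPL3L was too low for the test.

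The ratio of each paralogue to its partner was compared between the tissues with a two-sided exact permutation test of 4 against 4 libraries, in 7 of the 8 pairs at 3 locations, 21 tests in all. The test ignored that both tissues came from the same eyes, so that the spread between animals stayed in it. The SDs given here are of differences within eyes. The smallest p this design allows is 0.0286, reached by 11 tests, and with Benjamini-Hochberg adjustment it became 0.0545, so that none passed. The log2 ratio of RPL26L1 to RPL26 was higher in retina by 2.30 ± 0.0912 at the fovea and 2.05 ± 0.201 at the nasal location (SD, n = 4 eyes), in 4 of 4 eyes each. For RPL7L1 to RPL7 the difference was 2.26 ± 0.392, 1.76 ± 0.267 and 1.68 ± 0.321 at the fovea, the perimacula and nasally, also in 4 of 4 eyes. The ratio of RPS27L to RPS27 differed by -0.01 ± 0.141 at the fovea, with eyes on either side of 0, and by -0.63 ± 0.175 and -0.71 ± 0.211 at the perimacula and the nasal location. For RPL22L1 to RPL22 the ratio was lower in retina in 4 of 4 eyes at each of these locations. From fovea to nasal the differences were -0.38 ± 0.175, -0.41 ± 0.147 and -0.39 ± 0.167, with permutation p of 0.229, 0.200 and 0.143 before adjustment.

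**Figure D4:**
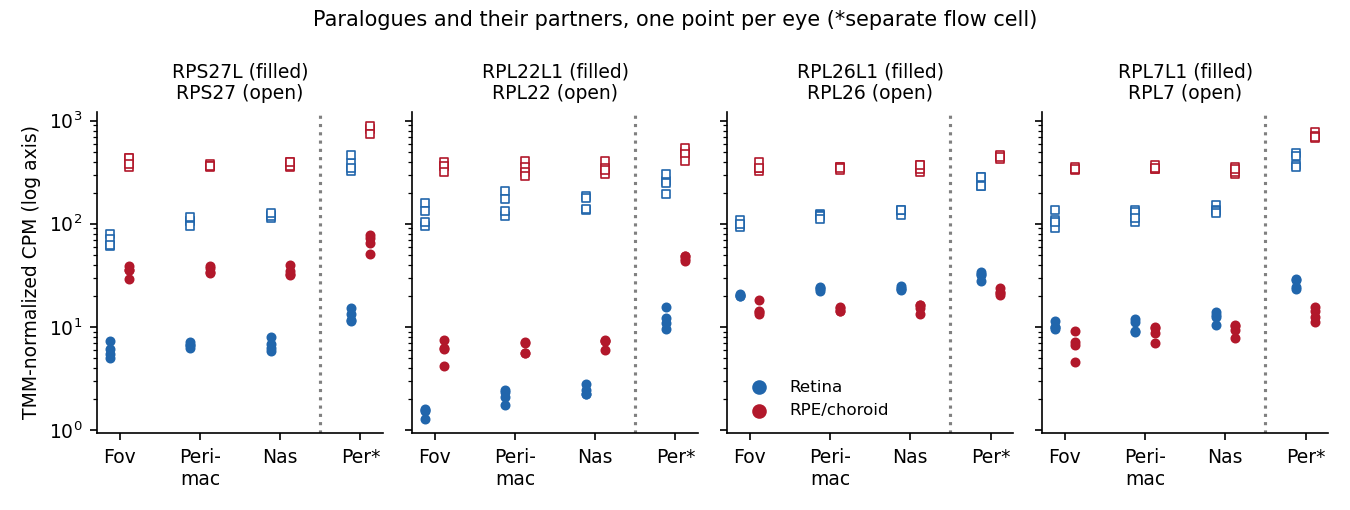
TMM-normalised CPM on a log axis (y axis) of 4 paralogues (filled circles) and their partners (open squares) by location (x axis), 1 point per eye, in retina (blue) and RPE/choroid (red). The partners and the paralogues RPS27L and RPL22L1 are lower in retina at each location, whereas RPL26L1 is higher in retina (19.8 to 21 against 13.3 to 18.1 CPM at the fovea).

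At the periphery, measured on its own flow cell, most members were higher than at the fovea in both tissues. In retina 103 of 113 tested entries were lower at the fovea and none higher (69.8% of all genes called, 39.8% lower), including 74 of 75 principal entries, and the median log2 fold change was -1.52 beside -0.11 for all genes. In RPE/choroid 80 of 112 were lower and 2 higher (47.7% called, 24.5% lower and 23.2% higher), with a median of -0.68 beside -0.05. Of 76 principal entries, 62 were lower at the fovea in both tissues, a count with no joint share over all genes beside it. Over 75 principal entries the changes in the tissues had a Pearson r of 0.68, against 0.31 over all genes; the tissues come from the same eyes and both contrasts carry the flow cell. Mitochondrial ribosomal proteins, which are made from nuclear genes for another ribosome, were 42 lower and 5 higher of 70 tested in retina, and 44 lower and 5 higher in RPE/choroid.

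RPS19 had the largest fold by the naming rule in retina, with 372, 309, 395 and 313 CPM at the periphery, all far above the 35.9 to 46.7 CPM of the fovea (log2 fold change -3.12, SE 0.14, adjusted p = 2.92e-10). RPS18 (8.02-fold lower at the fovea) and RPS27A (6.05-fold lower), which is made as a fusion with ubiquitin, followed. In RPE/choroid RPS29, a small zinc-binding protein, had 57.7, 79.4, 83.0 and 68.9 CPM at the fovea and 276, 278, 283 and 231 CPM at the periphery, without overlap (log2 fold change -1.89, SE 0.11, adjusted p = 3.02e-08). RPL13 stood against the rest there, at 215, 194, 204 and 167 CPM at the periphery, below every foveal eye (log2 fold change 0.35, SE 0.08, adjusted p = 0.00343).

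RPL22L1 changed by a like amount in both tissues. It had 9.43, 10.9, 15.7 and 12.2 CPM in peripheral retina and 48.2, 49.0, 45.8 and 43.1 CPM in peripheral RPE/choroid, several times its foveal levels. The log2 fold change of fovea against periphery was -2.99 in retina (SE 0.14, adjusted p = 3.75e-10) and -2.97 in RPE/choroid (SE 0.14, adjusted p = 8.95e-09).

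Between the tissues at the periphery, where both lay on the same flow cell, 69 of 122 tested entries were lower in retina and 19 were higher (75.7% of all genes called, 37.9% lower and 37.8% higher). Among principal entries 59 of 77 were lower and 5 higher, with a median of -0.53 over principal entries. Besides RPL26L1 and RPL7L1, the higher ones were RPL3 (log2 fold change 0.32), the Y-linked RPS4Y2 (0.31) and RPS3 (0.26). RPL3 had 1639, 1559, 1621 and 1547 CPM in peripheral retina and 1288, 1280, 1264 and 1272 CPM in peripheral RPE/choroid, without overlap, although in foveal retina its 533 to 636 CPM lay below the 817 to 912 CPM of foveal RPE/choroid. RPL28 and RPL37 had the most negative values by the naming rule, both -1.42, while the less abundant RPS27L and RPL22L1 were more negative.

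The animals differed little in most members. Over the 73 principal entries above 1 CPM, the mean difference of RM03 minus RM04 had a median size of 0.08 on the log2 scale, and it exceeded 0.5 for 3. A set of 4 entries, by contrast, were nearly off in RM03 and higher in RM04 in all 8 groups, with differences of at least 2. The principal RPL15 entry (ENSMMUG00000006353) had 0.0235 to 0.660 CPM in RM03 and 13.2 to 34.9 CPM in RM04. No RM03 library overlapped an RM04 library, in both tissues and at all 4 locations.

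The others were a pair of RPS2 entries and an RPL18 entry. The mean log2 difference was -5.25 for RPS2 ENSMMUG00000010157, -3.94 for RPS2 ENSMMUG00000007939 and -3.48 for RPL18 ENSMMUG00000029695, the latter at no more than 1.19 CPM. These entries belong to symbols with near-identical copies, to which the assignment of reads is uncertain, and there are 2 animals, so that the differences are a description. A LOC entry with the human symbol RPL15, outside the rule, had a mean of 289.2 CPM. The named RPL15 entry, with its difference between the animals, therefore gives no measure of that gene by animal, location or tissue.

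**Figure D5:**
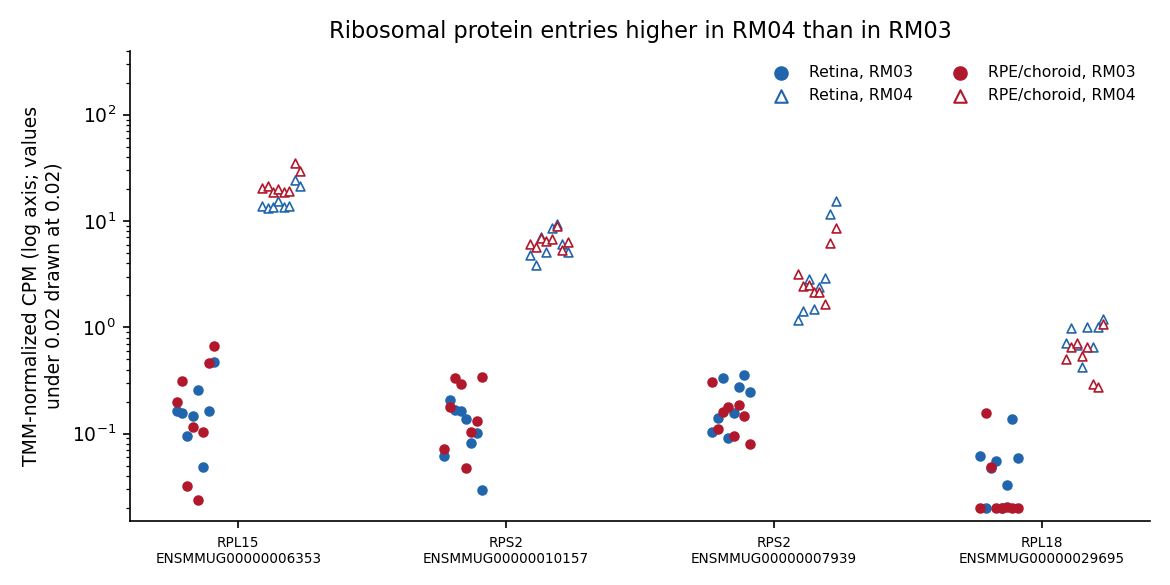
TMM-normalised CPM on a log axis (y axis, values under 0.02 drawn at 0.02) of the 4 ribosomal protein entries that were higher in RM04 by at least 2 on the log2 scale in every group (x axis, symbol and identifier), 1 point per library, in retina (blue) and RPE/choroid (red), circles for RM03 and triangles for RM04. The RPL15 entry is below 1 CPM in RM03 and at 13.2 CPM or more in RM04, and the other 3 entries are also higher in RM04.

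Other genes of the translation machinery were read in the same fits. Among 8 ribosomal proteins outside the naming rule (among them the stalk proteins RPLP0 and RPLP2 and the scaffold RACK1), 5 were called lower in foveal than nasal retina and none higher, where 31.3% of all genes were lower and 24.7% higher. RPLP0 had a log2 fold change of -0.64 (adjusted p = 5.33e-05) and RACK1 of -0.40 (adjusted p = 0.000307). All 8 were lower in retina than in RPE/choroid at the fovea, where 39.7% of all genes were, led by RPLP2 with -1.96. The other lists moved both ways between fovea and nasal retina, with 5 higher and 8 lower of 37 elongation and initiation factors, 7 higher and 9 lower of 33 ribosome biogenesis genes, 5 higher and 6 lower of 17 TOR pathway and TOP mRNA regulators, and 12 higher and 7 lower of 70 mitochondrial ribosomal proteins. Each of these lists but the TOR pathway list had a smaller share of called genes than the 56.0% of all genes.

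EEF1A1, the elongation factor whose mRNA carries a TOP motif, was lower at the retinal fovea (log2 fold change -0.63, adjusted p = 5.11e-05), whereas EEF1A2, its form in neurons and muscle, was higher (1.32, adjusted p = 1.42e-06). Between the tissues at the fovea EEF1A1 had -1.77 and EEF1A2 6.50, and TPT1, also encoded by a TOP mRNA, had -1.86. Of the regulators, MYC, which drives ribosome synthesis, was higher at the retinal fovea than nasally (1.47, adjusted p = 1.25e-05), and EIF4EBP1, a translation repressor controlled by TOR, was lower (-0.97, adjusted p = 8.16e-05). EIF4EBP1 was also lower in retina than in RPE/choroid at the fovea (-4.36). At the fovea, 24 of 70 mitochondrial ribosomal proteins were higher and 15 lower in retina than in RPE/choroid. Of all genes, 38.9% were higher and 39.7% lower, and neither share of this list reached that. The cytoplasmic entries had 5 higher and 91 lower, and the difference between the lists was not tested.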

How the data were processed

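The values are estimated counts per gene that the authors deposited for each of 136 sequencing lanes, made with Salmon 0.13 against Mmul_8.0.1 and summed by tximport as length-scaled TPM. Summing the lanes of each library and rounding gave 42448903 to 78574055 estimated counts in each of 32 libraries.

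Tests used edgeR 4.0.16 (TMM factors over all libraries, filterByExpr at a minimum count of 10) with limma 3.58.1 and R 4.3.3, the animal as covariate, and an adjusted p of 0.05 by the Benjamini-Hochberg method over all genes. Locations on shared flow cells were fitted together, and the periphery was added for its own comparisons. Levels are TMM-normalised CPM, except that the classes of entries by level and the LOC entries used library totals alone. Ratios used a prior count of 2. Python 3.11.15, numpy 2.4.6, pandas 2.3.3, scipy 1.17.1 and matplotlib 3.10.9 were also used, and DESeq2 1.42.0 as an alternative. The fits were tested on simulated data.

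The members and lists were chosen with earlier results of these data known. Genes were named by rule: per comparison the 3 largest changes in each direction among called principal entries at a mean of 5 log2 CPM or more, paralogues and partners, extremes of mean level, animal differences of at least 2 on the log2 scale, symbols with the most entries, and up to 3 called genes per other list. Exceptions are marked, and a few items that these rules name are not reported here. Eye numbers pair libraries by label, and deviations from group means over 1000 genes correlated between locations of an eye at 0.59 in retina (lowest 0.38) and 0.34 in RPE/choroid (lowest 0.05), and with the fellow eye of the same animal at 0.58 and 0.38, so that they follow the animal and show no pairing by eye beyond it.

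A RefSeq table held 61 of the 279 identifiers, 60 with the same symbol. Its assembly is not the authors' build, so no coordinates are given.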

Additional observations from a re-analysis of the deposited data

Results flagged for a closer look

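A check for a single eye far from the other 3 was run on 224 sets of a named gene in a group. It marked 8, where about 1 in 20, or 11.2, would be marked by chance alone. The gap to the nearest eye, as a fraction of the range on the log2 CPM scale, is given for each. The RM03 left eye was low for RPS18 in nasal retina (173 against 193 to 196 CPM, 0.884), for RPS15A in perimacular retina (106 against 121 to 123 CPM, 0.877), for RPL26 in nasal retina (122 against 134 to 136 CPM, 0.864) and for RPL22L1 in nasal RPE/choroid (5.98 against 7.26 to 7.39 CPM, 0.915). The RM03 right eye was high for RPS29 in nasal retina (31.1 against 27.1 to 27.6 CPM, 0.865). The RM04 left eye was low for RPL3 in perimacular retina (575 against 703 to 708 CPM, 0.967) and for RPS29 in peripheral RPE/choroid (231 against 276 to 283 CPM, 0.867). The RM04 right eye was low for RPL10 in foveal retina (46.7 against 53.0 to 53.7 CPM, 0.909).

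The change from nasal to fovea differed between the tissues for 62 entries in the interaction test of edgeR, other named genes among them. The 3 with the largest differences by the naming rule were flagged. On the log2 scale these were -0.84 for RPS18, -0.89 for RPS19 and -0.88 for RPS27, with adjusted p of 3.52e-05, 0.000146 and 2.20e-05. RPL41 was level with RPS18 at -0.84 (adjusted p = 3.22e-05), so that the difference is not particular to the 3.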

How the results depend on the processing

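Of 261 alternatives of 26 results, 228 kept the direction and side of the threshold, or a count within 1.5 times. With shares over TMM-normalised library sizes, the difference was -0.0450 percentage points for fovea minus perimacula, 0.175 for perimacula minus nasal and -1.11 for fovea minus periphery in RPE/choroid, and -1.24 and -0.857 between the tissues at the fovea and nasally. Counts of called entries changed as follows. Foveal against perimacular retina gave 30 without covariate and 21 to 47 with 1 eye left out. Perimacular against nasal retina gave 1 with DESeq2. In RPE/choroid, fovea against perimacula gave 6 with DESeq2, 0 with the eye as a replicate block, 0 without covariate, 0 with the periphery included and 0 to 0 with 1 eye left out. Fovea against nasal gave 1 among principal entries, 13 with DESeq2, 5 with library totals alone, 0 without covariate and 0 to 4 with 1 eye left out. Perimacula against nasal gave 53 with library totals alone, 5 without covariate, 12 with the periphery included and 2 to 10 with 1 eye left out. The interaction gave 26 to 62 with 1 eye left out. The causes of these changes were not tested. A fit with 1 eye left out also has fewer degrees of freedom, and its count varied with the eye left out. The fovea difference of the RPS27L to RPS27 ratio (-0.01) turned to 0.0280 without replicate 1 and 0.0303 without replicate 3, in a range of -0.0674 to 0.0303. That of RPL39L to RPL39 (0.09) turned to -0.244 at a prior count of 0.25 and ranged from -0.383 to 0.398 with 1 eye left out.

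For single named genes, 2638 of 2730 alternatives kept the call, 84 lost it, 8 gained it and none reversed. The eye block changed 3 calls, all named with their genes, and moved no other count by over 1.5 times. Members' medians kept their sign under every scaling tried. Library totals alone moved the median of all genes by over 0.1, to 0.11 in RPE/choroid for perimacula against nasal, -0.19 for fovea against periphery, and 0.14 and 0.18 between the tissues at the fovea and nasally. Counting the LOC entries too, an alternative added after the data were seen, gave 83 calls between foveal and nasal retina in place of 73. Adding entries can only raise this count, and 56.0% of all genes were called there. All p-values rest on 4 eyes of 2 animals, the periphery on its own flow cell, and low entries on copies that share reads.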
